A study of Mus musculus with 12 samples.

Results

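The 9 type I interferon-stimulated genes (ISGs), Ifit1, Ifit2, Ifit3, Isg15, Irf7, Oasl2, Usp18, Rsad2 and Ifi44, were described in WAT (white adipose tissue), BAT (brown adipose tissue), liver and skeletal muscle of obese and lean mice. They were taken by symbol from the 22276 gene symbols of the expression table, and all 9 were found, each with a value in all 12 libraries. The question was whether they shift together between diets and with narciclasine (ncls, a plant alkaloid) within each organ. All mice were C57BL/6J males of 17 wk of age. NCD-veh mice ate a normal chow diet and received vehicle (veh), HFD-veh mice ate a high-fat diet from 8 wk of age and received veh, and HFD-ncls mice ate the high-fat diet and were gavaged with ncls at 1 mg/kg once a week, starting at 10 wk and lasting 7 wk. Each organ had 1 library per group, and the number of mice behind a library is not given in the sources used here. There were therefore no replicates, and no spread between animals and no test of a difference can be given: every comparison describes these 12 libraries. The muscle samples carry only the tissue name Muscle in the labels, and the methods name the quadriceps.

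Type I interferons (IFN-alpha and IFN-beta) bind a receptor made of IFNAR1 and IFNAR2, which activates the kinases JAK1 and TYK2. These phosphorylate STAT2, which acts with IRF9 in a complex that binds the interferon-stimulated response element (ISRE) in the promoters of ISGs. The products of ISGs limit viral replication, and some feed back on the pathway itself. In metabolic organs, macrophages, lymphocytes, endothelial cells and parenchymal cells can all express ISGs, so bulk tissue sums over all of them. In such samples, fewer cells of a type and less RNA per cell cannot be told apart.

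The 9 genes lie on 7 mouse chromosomes (GENCODE annotation on NCBIM37, the assembly also called mm9). Ifit2, Ifit3 and Ifit1 lie close together on the plus strand of chromosome 19, at 34625184 to 34650909, 34658021 to 34663221 and 34715361 to 34724499. Isg15 lies on chromosome 4 (155573533 to 155574927, minus strand), Irf7 on chromosome 7 (148448605 to 148452380, minus strand) and Oasl2 on chromosome 5 (115346943 to 115362243, plus strand). Usp18 lies on chromosome 6 (121195924 to 121220934, plus strand), Rsad2 on chromosome 12 (27127618 to 27141317, minus strand) and Ifi44 on chromosome 3 (151393886 to 151412911, minus strand). All are annotated as protein-coding, and the expression values sum over their exons.

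Promoters were read because ISGs are known for sharing the ISRE. RefSeq promoters of build GRCm38.p6, from 250 bases before to 50 bases after the annotated start, matched 8 of the 9 genes, all but Usp18, with 9 windows because Ifit2 had 2. The ISRE core GAAANNGAAA, or its reverse complement TTTCNNTTTC, was found in 4 of the 8 genes and in 3.44% of all 32851 promoters of the table. Isg15 held 3 overlapping matches, Ifit1 and Ifit3 held 2 each, and Rsad2 held 1. The windows of Irf7, Oasl2, Ifit2 and Ifi44 did not hold these letters. The core of the gamma-activated site (GAS), TTCNNNGAA, which reads the same on either strand, was found in 1 of the 2 Ifit2 windows, in no other member window, and in 8.3% of all promoters. The 180 bases before the start of the 4 genes with an ISRE core are printed below 5′ to 3′ with the matches in capitals, because they are the feature that these members share and most promoters lack. They span chr19:34640709-34640888 (plus strand), chr19:34583349-34583528 (plus strand), chr4:156200819-156200998 (minus strand) and chr12:26456453-26456632 (minus strand) of GRCm38.p6.
Ifit1: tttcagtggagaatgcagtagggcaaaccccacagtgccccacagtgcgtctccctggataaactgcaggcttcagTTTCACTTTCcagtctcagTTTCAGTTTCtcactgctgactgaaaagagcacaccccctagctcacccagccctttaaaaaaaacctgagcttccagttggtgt
Ifit3: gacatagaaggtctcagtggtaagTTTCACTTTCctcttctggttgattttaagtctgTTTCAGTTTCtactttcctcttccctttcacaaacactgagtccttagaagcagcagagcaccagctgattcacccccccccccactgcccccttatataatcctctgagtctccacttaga
Isg15: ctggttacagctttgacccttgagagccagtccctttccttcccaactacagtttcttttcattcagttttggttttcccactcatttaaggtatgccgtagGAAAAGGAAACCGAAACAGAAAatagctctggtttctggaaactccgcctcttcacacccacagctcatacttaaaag
Rsad2: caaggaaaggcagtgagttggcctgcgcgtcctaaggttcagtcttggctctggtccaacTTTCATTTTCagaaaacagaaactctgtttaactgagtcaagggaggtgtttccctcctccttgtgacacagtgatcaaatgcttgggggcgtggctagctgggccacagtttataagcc
The matches lie at positions -156 to -57 relative to the start, and a match is a description of the letters, not a measured binding site.

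Expression was given as FPKM, fragments scaled to the length of a gene's exons and to all mapped fragments, so levels of different genes can be set side by side per length. Depth was estimated from the steps of whole fragments that low FPKM values lie on, as about 20000000 fragments (HFD-ncls WAT) to 28400000 fragments (HFD-veh muscle). The identity of the organs was checked by markers. Ucp1 was at 739.6 to 769.8 FPKM in BAT and below 4 FPKM elsewhere, Adipoq was highest in WAT, and Ckm was at 15740 to 16460 FPKM in muscle. Several libraries also held transcripts of another organ. The 8 hepatocyte markers summed to 486.9 FPKM in HFD-veh muscle against 16.6 in NCD-veh and 8.00 in HFD-ncls muscle, and the 8 skeletal muscle markers to 1955 FPKM with NCD-veh, 803.6 with HFD-veh and 115.1 with HFD-ncls BAT. Muscle markers also summed to 61.9 FPKM in HFD-veh liver against 2.13 and 3.15 in NCD-veh and HFD-ncls liver. In HFD-ncls WAT, 7 hepatocyte markers were at a median of 0.238% of their liver level, against 0.0744% in HFD-veh WAT.

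All 9 genes were expressed at low to moderate levels. Among the genes that block viral RNA, Ifit3 was most abundant in WAT, at 9.08 FPKM with NCD-veh, 8.21 with HFD-veh and 10.4 with HFD-ncls. Its levels in the same order of groups were 4.21, 3.18 and 4.51 FPKM in BAT, 2.95, 3.93 and 4.30 in liver, and 1.18, 2.42 and 1.70 in muscle. The WAT values were thus above all other organs, BAT and liver overlapped, and muscle lay below them. Ifit1, which binds foreign RNA and blocks its translation, was at 3.33, 2.94 and 3.19 FPKM in WAT, 2.80, 2.62 and 3.75 in BAT, 3.43, 3.54 and 2.40 in liver, and 0.642, 1.14 and 1.07 in muscle. WAT, BAT and liver overlapped for Ifit1, and only muscle stood below. Ifit2, a relative of Ifit1, was at 4.42, 4.05 and 3.49 FPKM in WAT, 1.21, 1.86 and 1.83 in BAT, 0.595, 0.457 and 0.313 in liver, and 0.285, 0.384 and 0.399 in muscle. WAT exceeded BAT and BAT exceeded liver in every library, and liver and muscle overlapped.

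Oasl2, an oligoadenylate synthetase-like protein, was at 8.68 FPKM with NCD-veh, 5.84 with HFD-veh and 7.51 with HFD-ncls WAT. It was at 2.16, 2.42 and 3.04 FPKM in BAT, 1.49, 1.00 and 1.68 in liver, and 0.828, 0.824 and 0.813 in muscle, and the 4 organs did not overlap. Rsad2 encodes viperin, an antiviral radical SAM enzyme of the endoplasmic reticulum and lipid droplets. It was the member that stood out in BAT, at 13.3 FPKM with NCD-veh, 9.55 with HFD-veh and 12.6 with HFD-ncls. It was at 3.36, 4.53 and 5.98 FPKM in WAT, 3.02, 1.38 and 1.34 in liver, and 1.04, 0.616 and 0.974 in muscle, again without overlap between organs. Ifi44, an interferon-induced cytoplasmic protein, was the least abundant. It was at 0.794, 0.983 and 1.37 FPKM in WAT, 0.570, 0.731 and 0.963 in BAT, 0.751, 0.603 and 0.796 in liver, and 0.0952, 0.0777 and 0.171 in muscle. WAT, BAT and liver overlapped for Ifi44.

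Among the regulators, Irf7, the transcription factor that amplifies interferon production, was most abundant in liver, at 19.4 FPKM with NCD-veh, 10.7 with HFD-veh and 12.8 with HFD-ncls. It was at 8.49, 6.93 and 9.72 FPKM in WAT, 4.25, 5.08 and 6.2 in BAT, and 0.684, 0.910 and 1.46 in muscle, and the 4 organs did not overlap. Isg15 encodes a ubiquitin-like protein that is joined to other proteins. It was at 3.61, 3.39 and 4.89 FPKM in WAT, 2.70, 3.45 and 4.18 in BAT, 3.75, 5.02 and 5.10 in liver, and 0.466, 0.793 and 1.03 in muscle, with overlap among WAT, BAT and liver. Usp18 removes ISG15 from its targets and dampens signaling at IFNAR2. It was highest in liver, at 2.99, 3.36 and 2.50 FPKM, and was at 1.62, 1.78 and 2.02 in WAT, 1.83, 1.5 and 1.85 in BAT, and 1.13, 1.72 and 1.05 in muscle. WAT overlapped BAT and BAT overlapped muscle for Usp18.

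**Figure D1:**
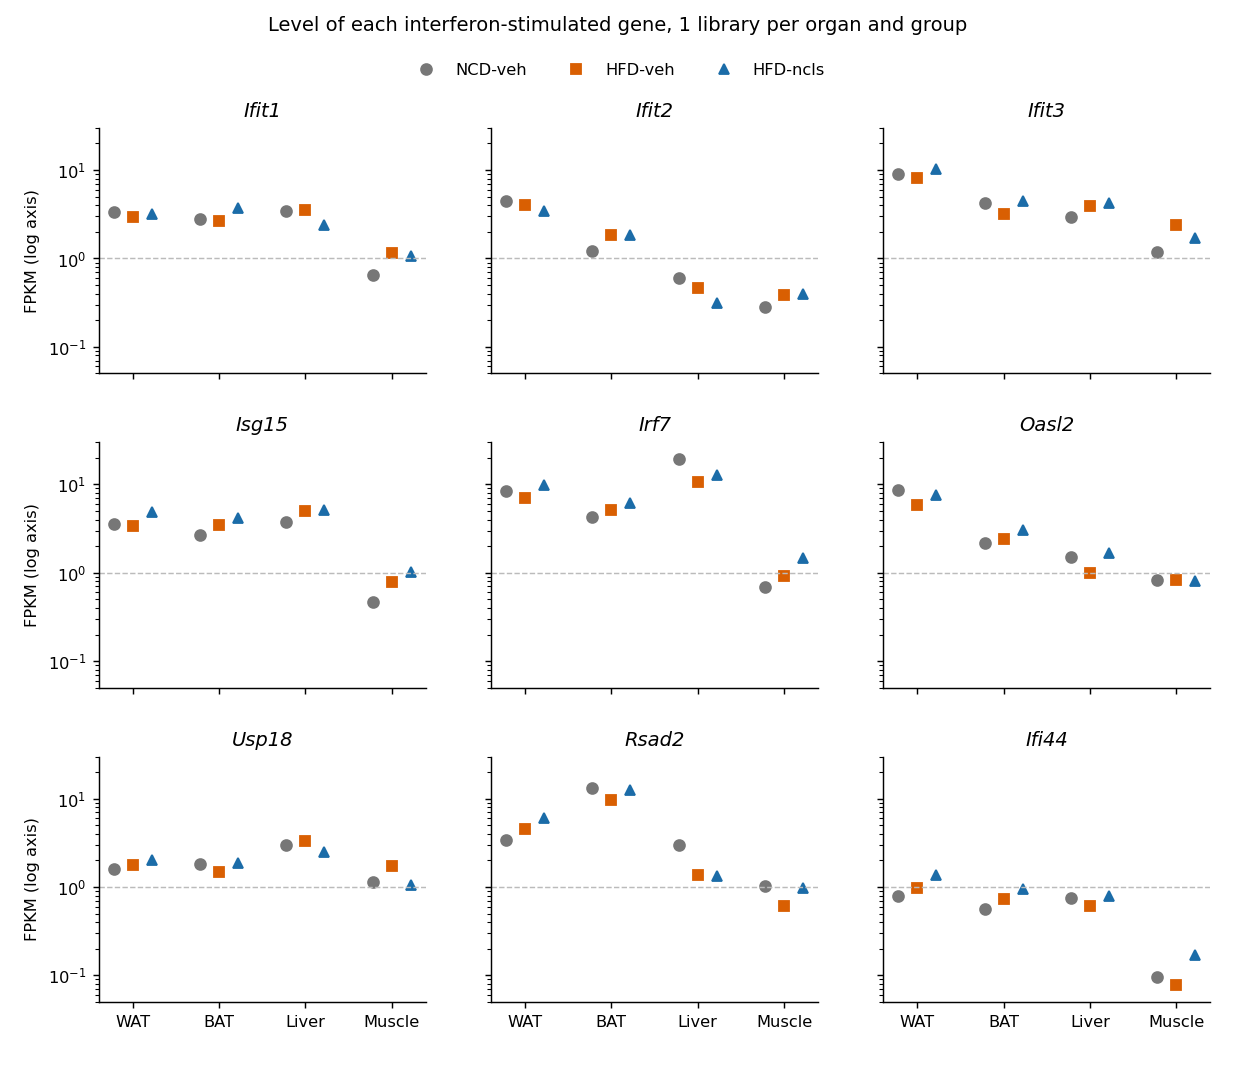
FPKM (log axis) of each of the 9 genes in the 4 organs, with 1 point per library and the symbol showing the group; the dashed line marks 1 FPKM. Rsad2 stands highest in BAT, Irf7 in liver and Oasl2 in WAT, and 7 of the 9 genes are lower in every muscle library than in any other library.

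The organs therefore did not rank alike for these genes. By mean level over the 3 libraries, WAT led for Ifit1, Ifit2, Ifit3, Oasl2 and Ifi44, liver for Isg15, Irf7 and Usp18, and BAT for Rsad2. The 3 libraries of 1 organ stood above the other 9 libraries for 6 of the 9 members, against 75.2% of all 13648 genes tested. All 3 muscle libraries were below the other 9 for 7 of the 9, all but Ifit2 and Usp18, against 26.6% of all genes. Within an organ, the highest of the 3 libraries was a median of 1.4 times the lowest in WAT (all genes 1.30), 1.41 times in BAT (1.23), 1.46 times in liver (1.31) and 1.82 times in muscle (1.22). These medians cover the members with at least 1 FPKM in 1 or more of the 3 libraries, which were 9 in WAT, 8 in BAT, 7 in liver and 6 in muscle.

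Differences between groups are given as log2 changes of FPKM + 0.1, for genes with at least 1 FPKM in 1 or both of the libraries compared. A member that reached 1 FPKM only in the higher library is counted among these, so the count over all 9 is given as well. HFD-veh against NCD-veh and HFD-ncls against HFD-veh share the HFD-veh library, so a low or high value in that library pushes its 2 comparisons in opposite directions. Ratios are given without the pseudocount, and 2-fold is judged on the log2 change. Across the 72 member comparisons, 56 passed the filter and only 1 of these exceeded 2-fold. An approximate 95% interval for counting error, from the estimated number of fragments, included a ratio of 1 in 41 of the 72, lay above 1 in 19 and below 1 in 12. These intervals cover counting error only and leave out the variation between mice. They were computed for the members only, so no share over all genes stands beside these counts.

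In WAT, levels with ncls exceeded those of HFD-veh for 8 of the 9 members, all of which passed the filter, and Ifit2 was lower. A higher value was seen for 58.5% of all 12152 genes in this comparison. The median log2 change was 0.36, with a range of -0.21 to 0.52, beside 0.042 over all genes, and rescaling by the median ratio turned none of the directions. No member exceeded 2-fold, as did 1.7% of all genes. Isg15 was at 3.39 FPKM with HFD-veh and 4.89 with HFD-ncls (log2 0.52), but with about 41 and 54 fragments its counting interval ran from 0.943 to 2.22. Irf7, at 6.93 and 9.72 FPKM, had a ratio of 1.4 (1.19 to 1.66), Rsad2 a ratio of 1.32 (1.14 to 1.52), Oasl2 a ratio of 1.29 (1.12 to 1.48) and Ifit3 a ratio of 1.26 (1.07 to 1.49). The intervals of these 4 genes lay above 1. Ifi44 (log2 0.44), Usp18 (0.17) and Ifit1 (0.11) had intervals that included 1, as did Ifit2 (-0.21, ratio 0.861, 0.726 to 1.02). HFD-ncls was the highest of the 3 WAT libraries for 6 of the 9 members, against 37.3% of all genes.

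Between HFD-veh and NCD-veh WAT the members did not share a direction. Of the 8 that passed the filter, 2 were higher and 6 lower in HFD-veh, and 3 of all 9 were higher, while 52.7% of all 12208 genes were higher. Their median log2 change was -0.13 beside 0.028 over all genes. No member exceeded 2-fold, although 9.11% of all genes did. Oasl2 was lower in HFD-veh, at 5.84 against 8.68 FPKM (log2 -0.56, ratio 0.673, 0.589 to 0.768), and so was Irf7 (log2 -0.29, ratio 0.816, 0.689 to 0.961). Rsad2 was higher, at 4.53 against 3.36 FPKM (log2 0.42, ratio 1.35, 1.15 to 1.59). The other members differed by log2 -0.18 to 0.28, within their counting intervals.

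The rest of the pathway was read in lists of genes in WAT. For HFD-ncls against HFD-veh, 58.5% of all genes were higher. Of the 36 other type I ISGs over the filter, 27 were higher (median log2 0.13), led by the oligoadenylate synthetases Oas1b (0.74) and Oas2 (0.67). Here and in the lists below, genes that reached 1 FPKM in only 1 of the 2 libraries are counted, among them Oas1b (0.813 with HFD-veh and 1.42 with HFD-ncls). Of the 22 IFN-gamma targets, 19 were higher (median 0.16), and the largest differences were in Socs1 (0.48), an inhibitor of JAK kinases, and Psmb9 (0.45), an immunoproteasome subunit. Of the 11 signal transducers, 10 were higher (median 0.16), led by Tyk2 (0.48) and Stat2 (0.47). Among the nucleic acid sensors 8 of 15 were higher (median 0.11), with the kinase Ikbke (0.57) and the adaptor Ticam1 (0.54) in front. Of the 4 receptor chains 2 were higher, and the largest differences were in Ifnar1 (0.16) and Ifngr2 (-0.15). No gene of these lists exceeded 2-fold.

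For HFD-veh against NCD-veh WAT, 17 of the 35 other type I ISGs were higher (median -0.032), against 52.7% of all genes. The largest differences were in Ifi205 (-0.80) and Epsti1 (-0.71). Of the 22 IFN-gamma targets 10 were higher (median -0.29), with the immunoproteasome subunit Psmb10 at 0.81 and Socs1 at -0.64. Irf8, a transcription factor of myeloid cells, was at 5.36 FPKM in NCD-veh and 16.2 in HFD-veh (log2 1.58) and was the only gene of the 5 lists past 2-fold here. It was followed among the 11 signal transducers by the phosphatase gene Ptpn6 (0.77), and 5 of the 11 were higher (median -0.010). Of the 4 receptor chains 3 were higher (median 0.31), led by Ifngr2 (0.70) and Ifnar2 (0.40), and 10 of 14 nucleic acid sensors were higher (median 0.11), led by Zbp1 (0.66) and Ikbke (0.53).

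Markers of immune cells also differed between the WAT libraries. The 10 lymphocyte markers summed to 20.8 FPKM with NCD-veh, 7.48 with HFD-veh and 14.3 with HFD-ncls, and none was at 0. Cd2 and Cd8a did not share the lowest level in HFD-veh and were lower still with HFD-ncls. Cd79a, a part of the B cell receptor, was at 3.82, 0.922 and 2.91 FPKM, and the T cell receptor chain Cd3g was at 2.14, 0.495 and 1.45. The 3 plasmacytoid dendritic cell markers summed to 3.35, 0.928 and 1.65 FPKM but did not share an order. Ly6d was at 1.44, 0.462 and 1.32 FPKM, Siglech at 1.87, 0.378 and 0.283, and Ccr9 below 0.1 in all WAT libraries. These cells are a known source of interferon and express Irf7. The 10 macrophage markers, all above 1 FPKM, summed to 695.1, 992.4 and 1231 FPKM, and 9 of the 10 were higher in each of the 2 comparisons. Neutrophil markers (6 genes) summed to 9.57, 43.3 and 37.9 FPKM. S100a8 was at 4.19, 34.7 and 35.5 FPKM, which was most of the sum with HFD-veh and HFD-ncls only. S100a9 went from 5.07 FPKM with HFD-veh to 0.522 with HFD-ncls, and Retnlg from 1.90 to a listed 0. Endothelial markers (6 genes) summed to 150.0, 226.9 and 232.0 FPKM. The 9 members summed to 43.4, 38.6 and 48.5 FPKM in the same order. The part of these cells in the ISG differences was not tested.

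In BAT, the HFD-ncls level exceeded the HFD-veh level for 7 of the 8 members over the filter and for 8 of all 9, Ifi44 being under 1 FPKM. The share over all 10331 genes was 46%. The median difference on the log2 scale was 0.30, from -0.020 to 0.50, beside -0.022 over all genes. The exception was Ifit2, at 1.86 FPKM with HFD-veh and 1.83 with HFD-ncls, and its direction turned when the libraries were rescaled by the median ratio. No member exceeded 2-fold, as did 1.96% of all genes. Ifit1 was at 2.62 and 3.75 FPKM (log2 0.50, ratio 1.43, 1.17 to 1.75) and Ifit3 at 3.18 and 4.51 (log2 0.49, ratio 1.42, 1.13 to 1.79). Rsad2, with about 925 and 1221 fragments, had the narrowest interval (ratio 1.32, 1.21 to 1.44). The intervals of Oasl2 (1.25, 1.03 to 1.53) and Irf7 (1.22, 1.03 to 1.46) also lay above 1, and those of Usp18, Isg15 and Ifi44 included 1. HFD-ncls was the highest of the 3 BAT libraries for 6 of the 8 members over the filter, against 23.8% of all genes.

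The diet comparison in BAT split the members. HFD-veh was higher than NCD-veh for 4 of the 8 members over the filter and for 5 of all 9, against 44.7% of all 10444 genes. Over these members the median log2 change was 0.031 beside -0.043 over all genes, and it turned to -0.11 when 5 FPKM were required, which left 2 members. No member exceeded 2-fold, as did 4.29% of all genes. Ifit2 was higher in HFD-veh, at 1.86 against 1.21 FPKM (log2 0.58, ratio 1.54, 1.21 to 1.94). Rsad2 was lower, at 9.55 against 13.3 FPKM (log2 -0.48, ratio 0.716, 0.658 to 0.780), and so was Ifit3 (log2 -0.39, ratio 0.756, 0.598 to 0.947). Neighboring genes of 1 family thus differed in opposite directions, and the 6 other intervals included 1.

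In HFD-ncls against HFD-veh BAT, 18 of the 28 other type I ISGs over the filter were higher (median log2 0.11), against 46% of all genes. Ifi27l2a (0.63, from 156.9 to 242.3 FPKM) and Rtp4 (0.55) differed most. Of the 20 IFN-gamma targets 16 were higher (median 0.15), led by the chemokine Cxcl9 (0.61) and the guanylate-binding protein gene Gbp3 (0.56). The signal transducers did not share this direction, with 4 of 10 higher (median -0.047) and the largest differences in Jak1 (-0.25) and Irf5 (-0.24). Of the 4 receptor chains 2 were higher, with Ifngr2 at -0.45 and Ifnar1 at 0.24, and 6 of 10 nucleic acid sensors were higher, with Tmem173 (STING) at -0.33 and Tlr3 at 0.25.

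In HFD-veh against NCD-veh BAT, 22 of the 28 other type I ISGs were higher (median 0.18), against 44.7% of all genes. Ifi203 was at 0.63 and Ifitm3, which hinders viral entry, at 0.57. Of the 20 IFN-gamma targets 17 were higher (median 0.27), led by the GTPase genes Ifi47 (0.86) and Gbp5 (0.82). Socs3, a feedback inhibitor of cytokine signaling, was at 0.431 FPKM in NCD-veh and 2.70 in HFD-veh (log2 2.40), the only gene of the 5 lists past 2-fold here, and it was followed by Irf5 (0.58) among the 10 signal transducers, of which 6 were higher. Of the 4 receptor chains 1 was higher, with Ifnar1 at -0.52 and Ifngr1 at -0.28, and 8 of 10 nucleic acid sensors were higher, led by Tmem173 (0.28) and Ddx58 (0.27), the gene of the RNA sensor RIG-I.

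Cell type markers also differed between the BAT libraries. The macrophage markers summed to 46.3 FPKM with NCD-veh, 62.9 with HFD-veh and 40.8 with HFD-ncls. Of the 7 over the filter, 6 were lower with HFD-ncls than with HFD-veh, among them Cd68 (2.60 against 9.15 FPKM). Cd14 was higher (3.91 against 2.66 FPKM), as were 46% of all genes. Emr1 reached 1 FPKM only with HFD-veh. For HFD-veh against NCD-veh, 4 of the 7 were higher and 3 lower. None of the 10 lymphocyte markers reached 1 FPKM in BAT, and their sums were 2.46, 2.30 and 3.05 FPKM. Other markers differed as well, among them S100a8 (2.79, 0.389 and 2.34 FPKM) and Cfd (820.8, 403.7 and 853.1 FPKM) in the same order of groups. The part of any cell type in the ISG differences of BAT was not tested. Muscle RNA also differed between these libraries. The 8 muscle markers were at a median of 1.97% of their muscle level with NCD-veh, 0.779% with HFD-veh and 0.114% with HFD-ncls BAT. At those shares, muscle RNA would carry at most 0.0232 FPKM of any member into BAT, for Ifit3. As a share of a member's own level, the most was 1.21%, for Usp18.

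**Figure D2:**
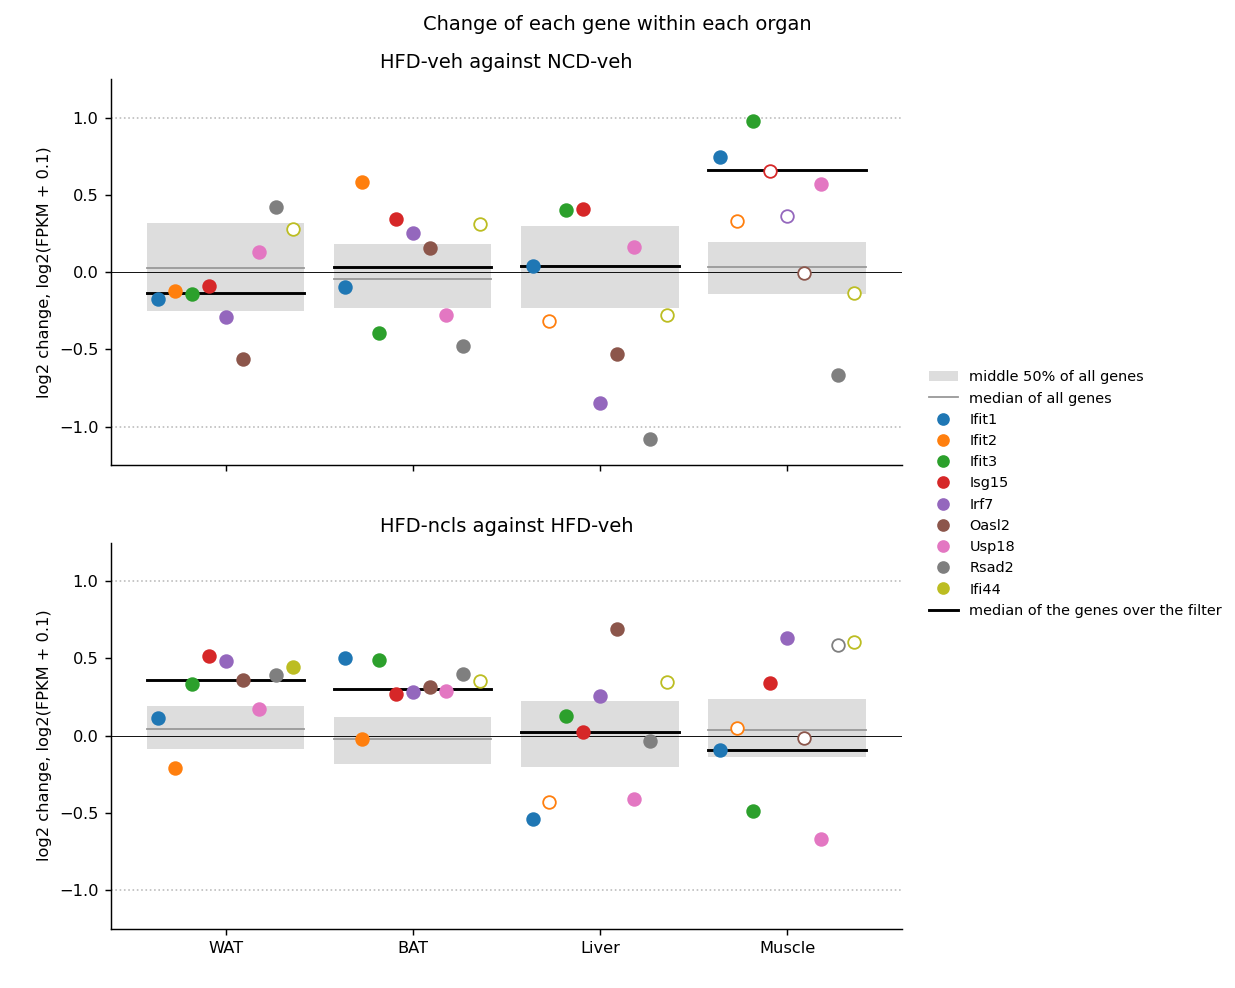
Log2 change of FPKM + 0.1 of each member (colored points) in the 4 organs for HFD-veh against NCD-veh (top) and HFD-ncls against HFD-veh (bottom); open points are members under 1 FPKM in the 2 libraries compared, black lines are medians of the filled points, gray bands hold the middle 50% of all genes and dotted lines mark 2-fold. With ncls the points lie mostly above the band in WAT and BAT (medians 0.36 and 0.30) and spread on either side of 0 in liver and muscle.

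In liver the members did not move together. Levels were higher with ncls than without for 4 of the 7 members over the filter and for 5 of all 9, against 52.4% of all 9956 genes. The median log2 change was 0.022 beside 0.020 over all genes, but single members ranged from -0.54 to 0.69. Oasl2 was higher in HFD-ncls, at 1.68 against 1.00 FPKM (log2 0.69, ratio 1.68, 1.25 to 2.30), and Irf7 by less (log2 0.26, ratio 1.20, 1.06 to 1.36). Ifit1 was lower, at 2.40 against 3.54 FPKM (log2 -0.54, ratio 0.678, 0.548 to 0.842), and so was Usp18 (log2 -0.41, ratio 0.743, 0.568 to 0.974). The other 5 intervals included 1. No member exceeded 2-fold, as did 2.31% of all genes, and HFD-ncls was the highest of the 3 libraries for 3 of the 7 members, against 34.2% of all genes.

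The diet comparison in liver held the only member difference past 2-fold on the log2 change. Rsad2 was at 3.02 FPKM with NCD-veh, 1.38 with HFD-veh and 1.34 with HFD-ncls, so the chow library stood apart and the HFD libraries differed by less than counting error. HFD-veh was lower than NCD-veh by log2 -1.08 (ratio 0.456, 0.365 to 0.567, about 120 and 274 fragments), as were 2.27% of all genes past 2-fold in this direction. In either direction 5.12% of all 10016 genes exceeded 2-fold. Irf7 was also lower in HFD-veh, at 10.7 against 19.4 FPKM (log2 -0.85, ratio 0.554, 0.493 to 0.622), and so was Oasl2, at 1.00 against 1.49 (log2 -0.53, ratio 0.671, 0.487 to 0.905). Ifit3 was higher, at 3.93 against 2.95 FPKM (log2 0.40, ratio 1.33, 1.03 to 1.71), and Isg15 was at log2 0.41 with an interval that included 1. In all, 4 of the 7 members over the filter and 4 of all 9 were higher, against 54% of all genes. As a median, the log2 change of the 7 was 0.041 beside 0.039 over all genes, and that of all 9 was -0.275.

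The wider ISG list was as mixed in liver. For HFD-veh against NCD-veh, 16 of the 31 other type I ISGs over the filter were higher (median 0.017), against 54% of all genes. In each direction 2 were past 2-fold, beside 5.12% of all genes in either direction. Oas2, which makes the second messenger that activates RNase L, was at 1.31 FPKM in NCD-veh and 0.424 in HFD-veh (log2 -1.43), and Pnpt1, a mitochondrial exoribonuclease gene, was at 2.59 and 6.74 (log2 1.34). The other two were Ly6e, at 197.4 and 85.4 FPKM (log2 -1.21), and Samd9l, at 1.19 and 2.90 (log2 1.22), named here after their values were seen. Of the 19 IFN-gamma targets 10 were higher (median 0.010), led by Gbp7 (0.80) and Cxcl9 (0.79). Of the 11 signal transducers 3 were higher (median -0.051), with Socs3 at -0.53. The RNA sensor genes Ifih1 (0.74) and Ddx58 (0.63) led the 11 nucleic acid sensors, of which 7 were higher, and 1 of 4 receptor chains was higher, with Ifnar2 at -0.61 and Ifngr2 at 0.34.

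For HFD-ncls against HFD-veh liver, 13 of the 27 other type I ISGs were higher (median -0.011), against 52.4% of all genes. The largest differences were in Samd9l (-0.93) and Dtx3l (-0.64). Of the 19 IFN-gamma targets 9 were higher (median -0.064), and 2 guanylate-binding protein genes differed in opposite directions, Gbp2 at 0.85 and Gbp7 at -0.73. Of the 11 signal transducers 6 were higher, led by Irf8 (0.53) and Stat2 (0.41). Of the 11 nucleic acid sensors 3 were higher, with Tlr3 at -0.52 and Tbk1 at -0.43, and of the 4 receptor chains 2 were higher, with Ifngr2 at -0.39 and Ifnar1 at -0.22. The macrophage markers of liver summed to 54.8, 43.5 and 37.0 FPKM in the order NCD-veh, HFD-veh, HFD-ncls, and their part in these differences was not tested. Muscle markers were at 0.0629% of their muscle level in HFD-veh liver, which would carry at most 0.0527% of any member's level.

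Muscle had the lowest levels and the fewest fragments. In its diet comparison the members differed in both directions, and 5 of the 9 counting intervals included 1. HFD-veh was higher than NCD-veh for 3 of the 4 members over the filter and for 6 of all 9, against 55.1% of all 9587 genes. The median log2 change of the 4 was 0.66 and of all 9 was 0.365, beside 0.0325 over all genes. Ifit3 was at 1.18 FPKM in NCD-veh and 2.42 in HFD-veh, a ratio of 2.05 (1.45 to 2.95). With the pseudocount of 0.1 FPKM its log2 change was 0.98, just under 2-fold, and with 0.01 it passed 2-fold. Ifit1 was at 0.642 and 1.14 FPKM (log2 0.75, ratio 1.78, 1.21 to 2.63) and Usp18 at 1.13 and 1.72 (log2 0.57, ratio 1.53, 1.05 to 2.23). Rsad2 was lower in HFD-veh, at 0.616 against 1.04 FPKM (log2 -0.67, ratio 0.594, 0.430 to 0.829). With the pseudocount of 0.1 FPKM, 4.11% of all genes and no member were past 2-fold.

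Ifit3 shares most of its sequence with its neighbor Ifit3b, which the table lists under the older symbol I830012O16Rik. Their annotated transcripts were 98% identical over 1697 aligned bases, so the authors' counting could split fragments between them and the values of either are uncertain. I830012O16Rik was at 1.70 FPKM with NCD-veh, 3.68 with HFD-veh and 2.45 with HFD-ncls muscle, the same order as Ifit3. The HFD-veh muscle library is also the library with hepatocyte transcripts. Their median share of the liver level was 0.544%. At that share they would carry at most 0.0584 FPKM of any member into this library, and at most 6.41% of a member's level, for Irf7. Adipocyte markers (6 genes) summed to 331.1 FPKM with NCD-veh, 367.4 with HFD-veh and 362.5 with HFD-ncls muscle. Of the 6, 5 were higher and 1 lower in HFD-veh than in NCD-veh (median log2 0.968). For HFD-ncls against HFD-veh, 2 were higher and 4 lower (median log2 -0.557). How much of any member adipocyte RNA would carry into muscle was not tested.

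With ncls, muscle split again. Levels were higher with ncls for 2 of the 5 members over the filter and for 5 of all 9, against 55.5% of all 9694 genes. The median log2 change of the 5 was -0.092 beside 0.035 over all genes, and it turned to 0.046 over all 9 and to 0.125 without Ifit3. Irf7 was higher in HFD-ncls, at 1.46 against 0.910 FPKM (log2 0.63, ratio 1.61, 1.09 to 2.41), and Rsad2, under 1 FPKM in both, was at 0.974 against 0.616 (ratio 1.58, 1.14 to 2.20). Usp18 was lower, at 1.05 against 1.72 FPKM (log2 -0.67, ratio 0.607, 0.411 to 0.884), and so was Ifit3, at 1.70 against 2.42 (log2 -0.49, ratio 0.701, 0.511 to 0.95). No member exceeded 2-fold, as did 3.8% of all genes. HFD-ncls was the highest of the 3 libraries for 2 of the 6 members over the filter, against 42.7% of all genes.

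**Figure D3:**
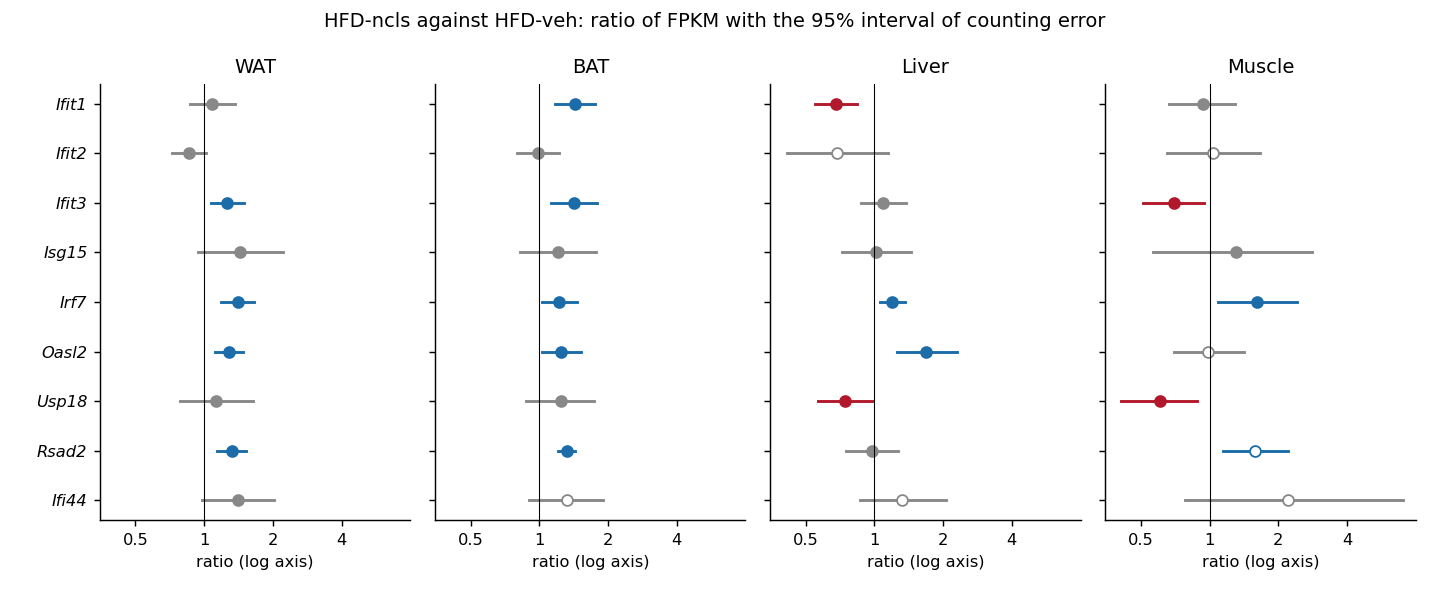
Ratio of FPKM in HFD-ncls to HFD-veh (log axis) for each member in the 4 organs, with the approximate 95% interval of counting error; blue intervals lie above 1, red below 1 and gray include 1, and open points are members under 1 FPKM in both libraries. Intervals above 1 number 4 in WAT and 5 in BAT with none below, whereas liver and muscle have 2 above and 2 below each. Intervals were computed for the members only, so these counts have no share over all genes beside them.

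Other ISGs of muscle were also divided. For HFD-veh against NCD-veh, 8 of 16 over the filter were higher (median 0.094), against 55.1% of all genes. I830012O16Rik (log2 1.07) was the only one past 2-fold, followed by Ifi205 (0.72). Of the 13 IFN-gamma targets 9 were higher (median 0.15), with Gbp7 at -0.85 and the peptide transporter gene Tap2 at 0.52. Socs3 was at 0.409 FPKM in NCD-veh and 1.36 in HFD-veh (log2 1.52), and Irf5 at -0.63, while 4 of the 9 signal transducers were higher. Of the 4 receptor chains 3 were higher, with Ifngr1 at 0.32 and Ifnar1 at -0.27, and of the 4 nucleic acid sensors over the filter 2 were higher, with Ticam1 at 0.42 and the adaptor Mavs at -0.31.

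For HFD-ncls against HFD-veh muscle, 11 of 18 other type I ISGs were higher (median 0.135), against 55.5% of all genes. Ifi27l2a was at -0.75 and Dtx3l at 0.71. Of the 13 IFN-gamma targets 9 were higher (median 0.028), with Gbp7 at 0.94 and Psmb10 at -0.53. Of the 9 signal transducers 6 were higher, with Irf5 at -0.60 and Tyk2 at 0.53, all 4 nucleic acid sensors were higher, led by Mavs (0.35) and Tbk1 (0.19), and 1 of the 4 receptor chains was higher, with Ifnar1 at 0.49 and Ifnar2 at -0.17. The macrophage markers of muscle summed to 18.7, 21.0 and 29.3 FPKM in the order NCD-veh, HFD-veh, HFD-ncls, and the lymphocyte markers to 0.436, 1.59 and 1.03 FPKM with 5, 3 and 2 of the 10 at 0. Their part in the muscle differences was not tested.

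**Figure D4:**
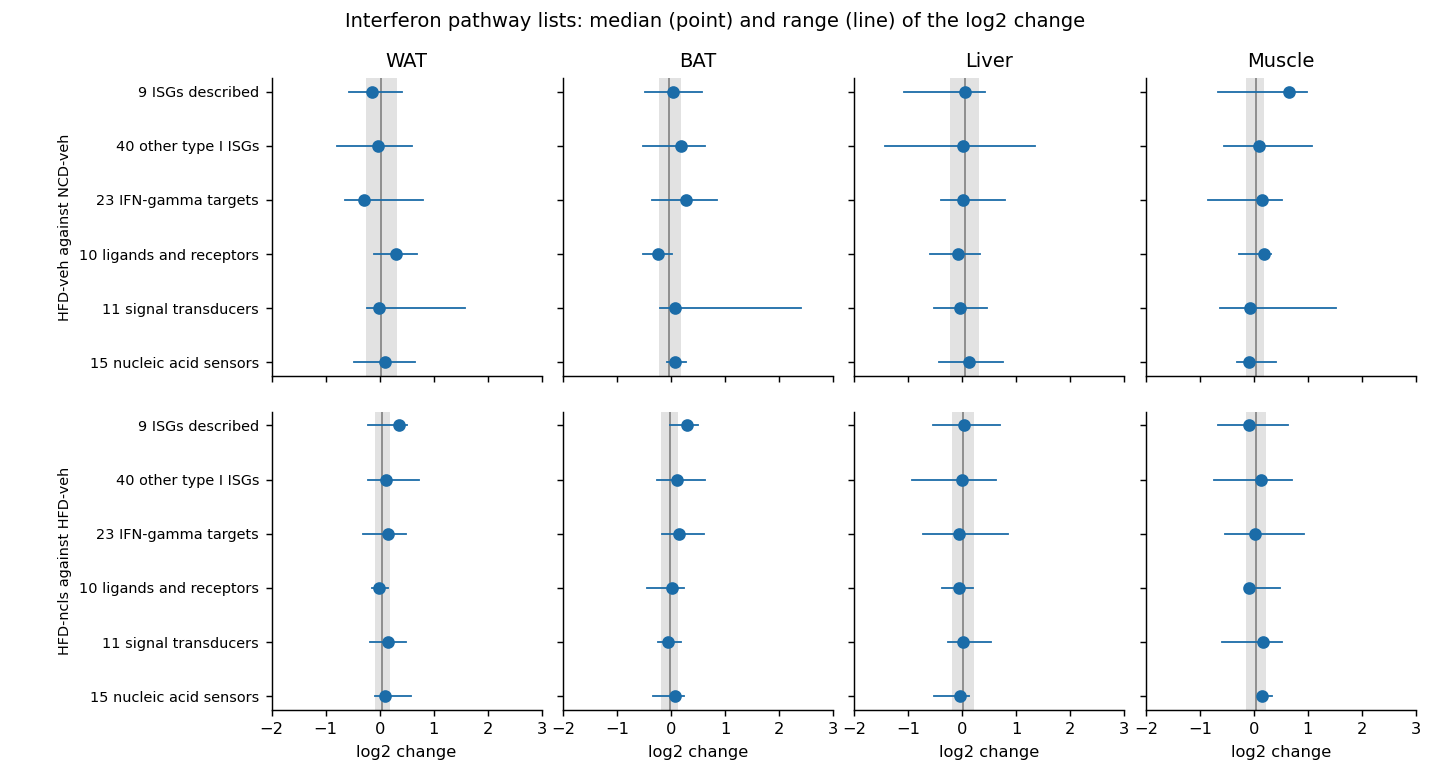
Median (point) and range (line) of the log2 change of FPKM + 0.1 over the genes of each interferon list that passed the filter, for HFD-veh against NCD-veh (top) and HFD-ncls against HFD-veh (bottom); gray bands hold the middle 50% of all genes and gray lines their median. For HFD-ncls against HFD-veh the genes described have medians of 0.36 in WAT (9 genes) and 0.30 in BAT (8 genes). Those of the other type I ISGs are 0.13 (36 genes) and 0.11 (28 genes). The members and lists were chosen with earlier results of these data known.

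Of the ligands, Ifnb1, Ifna1, Ifna2, Ifna4 and Ifne were listed at 0 in all 12 libraries, and Ifng was at 0.175 FPKM in NCD-veh WAT and below that elsewhere. The receptor chains were present in every library. Ifnar1 was at 8.70 to 11.3 FPKM in WAT, 4.32 to 6.22 in BAT, 4.17 to 5.30 in liver and 1.08 to 1.55 in muscle. Ifnar2 was at 65.7 to 90.8 FPKM in WAT, 72.6 to 82.7 in BAT, 48.8 to 74.5 in liver and 2.76 to 3.11 in muscle. Muscle had the lowest Ifnar1 and Ifnar2 levels, whereas Ifngr2 was highest there, at 35.9 to 43.0 FPKM against at most 32.2 elsewhere. The muscle libraries were below all others for 26.6% of all genes. A link between receptor levels and member levels was not tested.

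**Figure D5:**
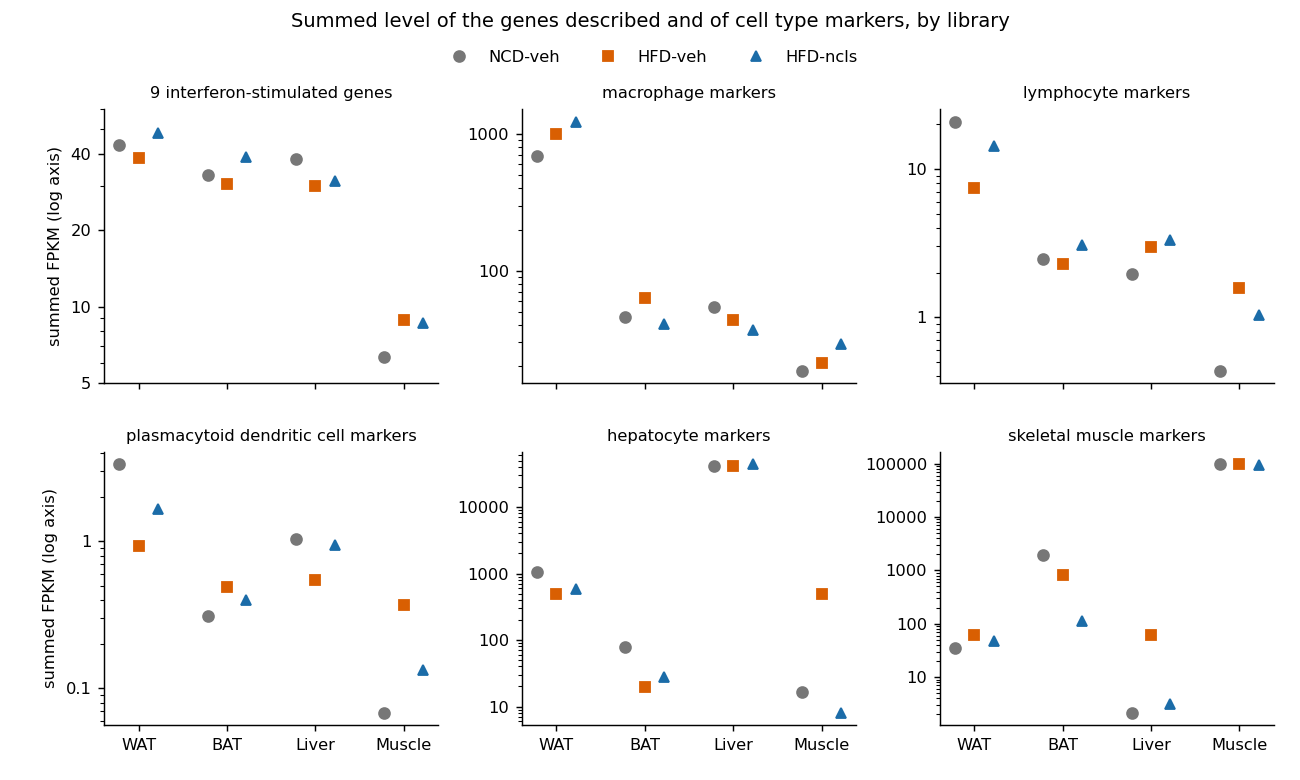
Summed FPKM (log axes) of the 9 genes and of marker lists for macrophages, lymphocytes, plasmacytoid dendritic cells, hepatocytes and skeletal muscle, with 1 point per library. In WAT the sum of the 9 genes and the lymphocyte sum are both lowest in HFD-veh (38.6 and 7.48 FPKM), whereas in BAT the macrophage sum is highest in HFD-veh (62.9 FPKM), and hepatocyte markers stand out in HFD-veh muscle. In liver the lymphocyte sum is lowest in NCD-veh (1.97 FPKM), where the sum of the 9 genes is highest (38.3 FPKM). Sums weigh abundant genes most, such as Irf7 in liver (19.4 FPKM in NCD-veh and 10.7 in HFD-veh), and do not stand for each of the 9 genes. The part of the marked cells in the sums was not tested.

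No member kept 1 direction across the 4 organs in both comparisons. For HFD-ncls against HFD-veh, Isg15, Irf7 and Ifi44 were higher in all 4 organs, by log2 0.022 to 0.52, 0.26 to 0.63 and 0.35 to 0.61, though the counting intervals of Isg15 and Ifi44 included 1 in all 4 organs and Ifi44 was under 1 FPKM in both libraries outside WAT. Ifit3, Oasl2 and Rsad2 were higher in 3 of the 4 organs, Ifit1 and Usp18 in 2 and Ifit2 in 1. For HFD-veh against NCD-veh no member was higher in all 4 organs, and Isg15 and Usp18 were higher in 3. The share of all genes higher in as many organs was not computed, so these counts have nothing to be set against.

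Whether the members share a profile was described by centering the log2 levels within each organ and correlating them over the 12 libraries, which share their organ mean and their library's depth and makeup. Ifi44, with a mean below 1 FPKM, was left out. Of the 28 pairs among the other 8 members, the median Pearson r was 0.11, 9 pairs were above 0.5 and 7 were below 0. Ifit1 and Ifit2 were most alike (r = 0.64), and Ifit3 and Rsad2 least (r = -0.42). With the mean of the other members, Ifit1 had r = 0.745 and Irf7 r = 0.74, while Oasl2 (0.20), Usp18 (0.21) and Rsad2 (-0.0068) had little in common with it. With the mean profile of all members, each member included, r ran from 0.30 (Rsad2) to 0.85 (Irf7).

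Of the 11843 genes ranked by r with that mean profile, the 10 closest genes outside the members were Arid4a (0.95), Bik (0.94), Pnp (0.915), H2-T23 (0.87), H2-T9 (0.865), Foxp1 (0.85), Ankrd10 (0.85), Rab17 (0.84), Pura (0.84) and Smndc1 (0.84). None of them is in any of the lists, and 6 of them were closer to the profile than the closest member. H2-T23 and H2-T9 are nonclassical MHC class I genes, and Arid4a and Foxp1 encode transcriptional regulators. The median r was 0.405 for the 34 other type I ISGs ranked and 0.031 for all genes, and r was above 0.5 for 14 of the 34 and for 6.79% of all genes.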

How the data were processed

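RNA of WAT, BAT, liver and muscle was sequenced on the HiSeq 2000 platform, with 1 library for each of the 12 combinations of organ and group. Per the methods, TopHat 2.0.11 was used for alignment to mm9. The authors deposited FPKM values of RefSeq genes from Cufflinks (version not given in the sources used here). FPKM is scaled to gene length and to mapped fragments, so a library with much RNA of a few genes has lower values for the others. No other scaling is stated. The deposited columns of ncls mice are named drug and were matched to the samples titled narciclasine.

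Log2 changes used a pseudocount of 0.1 FPKM, a filter of at least 1 FPKM in 1 of the 2 libraries and a 2-fold threshold, computed in Python 3.11.15 (numpy 2.4.6, pandas 2.3.3, scipy 1.17.1, matplotlib 3.10.9). Depth was estimated from low FPKM values. With transcript lengths shortened by 200 bases, 70.0% to 77.6% of these values came to whole fragments within 0.1. Counting intervals are exact 95% intervals of a ratio of 2 counts, on these estimated fragments. No interval covers the variation between mice. The scripts were tested on simulated data.

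The genes named were the 9 members, the 2 genes with the largest absolute log2 change over the filter in each of 5 interferon pathway lists per organ and comparison, and the 10 genes most like the members; 1 pathway gene is not reported here. Of the listed symbols, Tgtp2 was not matched and Ifit3b was matched by its older symbol. Markers of 9 cell types were read as summed FPKM, and single markers were named after their values were seen. The members and lists were chosen with earlier results of these data known. Alternatives were other pseudocounts (1 and 0.01 FPKM), no filter, at least 5 FPKM, rescaling by the median ratio, a 1.4-fold threshold and, added after seeing the data, leaving out Ifit3.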

Additional observations from a re-analysis of the deposited data

Results flagged for a closer look

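Differences in opposite directions between organs are listed here. With 1 library per group, the difference between organs was not tested. The median log2 change of the members from NCD-veh to HFD-veh was -0.13 in WAT and 0.66 in muscle, over 8 and 4 members. Over all 9 the medians were -0.122 and 0.365, and with a pseudocount of 1 the muscle median was 0.37. From HFD-veh to HFD-ncls, Ifit1 was higher in BAT (log2 0.50) and lower in liver (log2 -0.54). In the same comparison Ifit3 was higher in BAT (log2 0.49) and lower in muscle (log2 -0.49). The counting intervals of these 4 values for Ifit1 and Ifit3 did not include a ratio of 1, but the values were picked for their opposite directions. The intervals of Ifit3 take no account of fragments that could be split with Ifit3b.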

How the results depend on the processing

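Of 159 values recomputed for 25 results under the alternatives, 130 stayed within 0.1 on the log2 scale or within 1.5 times the count, and 29 moved. Most of these values were counts of members past 2-fold, nearly all 0 in the main setting, so their staying says little about stability. The medians moved more often: 4 moved and 4 stayed with no filter, 4 moved and 2 stayed with at least 5 FPKM, and 3 moved and 5 stayed without Ifit3. The medians of the members for HFD-ncls against HFD-veh in WAT and BAT were among those that stayed under every alternative run, and rescaling by the median ratio moved no median. Without a filter, the diet medians were 0.156 in BAT, -0.275 in liver and 0.365 in muscle, and the ncls median in muscle was 0.046. With at least 5 FPKM, 2 to 4 members were left outside muscle and none in muscle: the diet median came to -0.29 (WAT), -0.11 (BAT) and -0.22 (liver), the ncls median in liver was 0.139, and no member was past 2-fold in liver (0). A pseudocount of 1 gave a diet median of 0.37 in muscle and 0 members lower past 2-fold in liver, and a pseudocount of 0.01 gave 1 member higher past 2-fold in muscle. Without Ifit3 the diet medians were 0.156 in BAT and -0.245 in liver, and the ncls median in muscle was 0.125. At 1.4-fold, the diet comparison counted 1 member lower in WAT, 1 higher in BAT, 3 lower in liver, and 3 higher and 1 lower in muscle. The ncls comparison then counted 1 higher in WAT, 2 higher in BAT, 1 higher and 1 lower in liver, and 1 higher and 2 lower in muscle. Of the 10 genes most like the members, 6 were shared with a pseudocount of 1, 6 with no filter and 2 with at least 5 FPKM. The cause of these shifts was not tested beyond the number of genes or members that each setting leaves.

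No paired analysis was possible because each group had 1 library. Estimated fragments per member ran from 5.87 (Ifi44 in HFD-veh muscle) to 1340 (Rsad2 in NCD-veh BAT), so in muscle differences below about 1.5-fold were mostly within counting error.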
